A study of Mus musculus with 41 samples.

Results

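Havcr1 (ENSMUSG00000040405) encodes kidney injury molecule 1 (KIM-1), and its messenger RNA was followed here in 40 mouse kidney libraries. The gene was taken as 1 of the 48795 genes in the count table, by its name. Kidney RNA was read from the 3′ end of transcripts after unilateral ischemia-reperfusion injury (UIRI), in which the blood supply of the left kidney is stopped for a time and then restored. In the first cohort, male mice 8 to 10 weeks old were divided into 4 groups of 6. Control mice had no UIRI. UIRI d3 mice had 21 minutes of left renal ischemia at a core temperature of 34 °C and were killed on day 3. UIRI d7 mice had the same injury and a sham operation on day 3, and were killed on day 7. UIRI+Nx d7 mice had the same injury, lost the uninjured right kidney by nephrectomy (Nx) on day 3, and were killed on day 7. The second cohort carries the label WT (wild type) and holds WT UIRI d3 (n = 6), WT UIRI d7 (n = 6) and WT UIRI+Nx d7 (n = 4); its labels give no sex, age, ischemia time, sham operation or uninjured group. The strain is not given for either cohort, and the labels do not say that the libraries of the second cohort are each from a separate mouse, so p-values there measure the spread between libraries.

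KIM-1 is a membrane glycoprotein of the T cell immunoglobulin and mucin (TIM) family. It is nearly absent from the healthy proximal tubule and is made in large amounts there after injury. It binds phosphatidylserine on dying cells and lets tubule cells engulf them, and metalloproteases shed its outer part into the urine, where it serves as a marker of tubular damage. The same protein, named TIM-1, occurs on activated T cells and on B cells.

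Havcr1 lies on the forward strand of chromosome 11, from 46735080 to 46779578 (GRCm38), and no other annotated gene overlaps it. GENCODE M21 lists 4 transcripts. Havcr1-201, Havcr1-202 and Havcr1-203 start at 46751168, 46740061 and 46750511, have 8 exons each and share the last exon, which starts at 46778511 and holds the end of the coding sequence at 46778610 and the 3′ untranslated region. Havcr1-204 has 4 exons and ends at 46756245. Reads from the 3′ end cannot tell the 3 starts apart. Of the 472 words of 31 bases in the last 500 bases of its transcripts, 1 was shared with Timd2, the only other gene that shared any.

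The region around the start of Havcr1-201 is shown because it is the annotated start nearest to the coding sequence of the message followed here. The sequence is from RefSeq (GRCm38.p6), forward strand, 250 bases before the start and 50 after it. Capitals mark a match to the AP-1 motif TGANTCA:
Havcr1, chr11:46750918-46751217: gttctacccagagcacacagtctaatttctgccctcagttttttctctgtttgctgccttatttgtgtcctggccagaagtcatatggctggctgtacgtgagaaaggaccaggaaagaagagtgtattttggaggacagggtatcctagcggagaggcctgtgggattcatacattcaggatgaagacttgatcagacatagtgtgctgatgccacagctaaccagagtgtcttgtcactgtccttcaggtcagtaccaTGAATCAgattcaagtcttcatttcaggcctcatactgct
The match lies 10 bases after the start, and the coding sequence begins at 46751177, 1 base before it. On both strands, 7.81% of 32851 such windows of mouse genes hold that motif. The windows at the other 2 starts in the table held none. No match to TTCNNNGAA (STAT, in 8.30% of all windows) or GGGNNNNNCC (NF-kappaB, in 50.8%) was found in any of the 3 windows. These are matches of letters and not sites.

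Libraries held 5090418 to 33362940 counts. Havcr1 had 35 to 117 counts in a Control library and 728 to 22766 in an injured one, so counting error was small beside the spread between libraries except in Control. Levels are given as CPM, the counts of a gene scaled to a common library total, with library sizes scaled by TMM. Fold changes are from the quasi-likelihood F test of edgeR fitted to all groups of a cohort, with Benjamini-Hochberg adjustment over the genes tested in that fit and a threshold of 0.05. Of the 4 measures of library quality tested against Havcr1 within the injured groups of each cohort (8 tests), the number of genes with a count passed in the second cohort (r = -0.71, permutation p = 0.00071, adjusted p = 0.00568; Spearman rho = -0.61, permutation p = 0.0184, adjusted p = 0.147; r = -0.62 without the 2 farthest libraries). The other 7, on total count, mitochondrial share, hemoglobin share and the same gene number in the first cohort, did not pass.

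In uninjured kidneys Havcr1 was low, and 3 days after ischemia it was among the most changed genes of the kidney. Control libraries ranged from 1.69 to 5.35 CPM, with a median of 4.62 and a mean of 4.32 ± 1.36 (SD, n = 6). UIRI d3 libraries ranged from 564 to 1610 CPM, with a median of 944 and a mean of 1002 ± 352 (n = 6). Every UIRI d3 library was above every Control library. Havcr1 rose 233-fold, a log2 fold change of 7.86 (SE 0.47, adjusted p = 3.00e-12), and only 3 of the 15701 genes tested had a larger fold change in either direction. Of all genes, 32.7% changed in this comparison.

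On day 7 after sham nephrectomy the gene was still high. UIRI d7 libraries ranged from 190 to 894 CPM, with a median of 745 and a mean of 677 ± 259 (n = 6). In 5 of the 6 libraries the level was between 617 and 894 CPM, and replicate 4 was at 190 CPM. Havcr1 was 157-fold higher than in Control (log2 7.30, SE 0.46, adjusted p = 4.83e-12), where 39.6% of genes changed, and the groups did not overlap. The difference from day 3 was not past the threshold (log2 -0.57, SE 0.35, 95% interval -1.28 to 0.15, adjusted p = 0.520), in a comparison that called 2.6% of genes.

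When the right kidney was removed on day 3, Havcr1 in the injured kidney was 3.00-fold lower on day 7. UIRI+Nx d7 libraries ranged from 76.8 to 343 CPM, with a median of 238 and a mean of 225 ± 111 (n = 6). All of them were above Control and below every UIRI d3 library, and they overlapped UIRI d7 only through its replicate 4. Against UIRI d7 Havcr1 fell by 1.59 on the log2 scale (SE 0.35, adjusted p = 0.00668), and against UIRI d3 it fell by 2.15 (SE 0.36, adjusted p = 0.000431). These comparisons called 6.62% and 5.13% of all genes. Without UIRI d7 replicate 4 the fall against UIRI d7 was by 1.78 (adjusted p = 0.00105). The level remained 52.4-fold above Control (log2 5.71, SE 0.43, adjusted p = 1.62e-10), where 31.3% of genes changed.

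**Figure D1:**
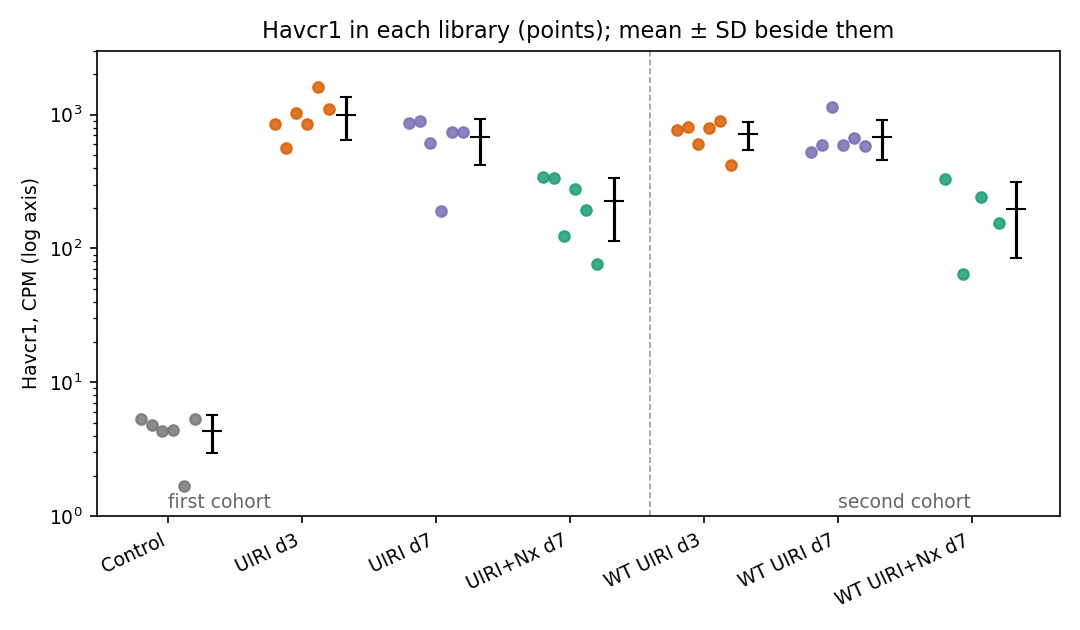
Havcr1 in CPM on a log axis, 1 point per library, for the 4 groups of the first cohort and the 3 of the second, with the mean and SD beside each group. Control libraries lie between 1.69 and 5.35 CPM, the groups after nephrectomy lie lowest among the injured ones, and UIRI d7 replicate 4 lies at 190 CPM within the range of the group after nephrectomy.

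The second cohort gave the same order at day 7. WT UIRI d3 libraries ranged from 420 to 892 CPM (median 781, mean 714 ± 173, n = 6). WT UIRI d7 libraries ranged from 523 to 1141 CPM (median 594, mean 685 ± 229, n = 6), with replicate 3 at 1141 CPM and the other 5 libraries at 675 CPM or below. The 4 WT UIRI+Nx d7 libraries measured 328, 64.9, 244 and 156 CPM (mean 198 ± 113), all of them below every other injured library of that cohort. With nephrectomy Havcr1 fell by 1.79 on the log2 scale against WT UIRI d7 (SE 0.34, adjusted p = 0.00372), and it fell by 1.85 against WT UIRI d3 (SE 0.34, adjusted p = 0.00217), which is 3.46-fold and 3.61-fold. The share of genes called was 5.24% and 6.02%. Between day 3 and day 7 without nephrectomy the difference was -0.06 (SE 0.28, 95% interval -0.66 to 0.53, adjusted p = 0.930), beside 8.56% of genes called. Both comparisons with the nephrectomy group share its 4 libraries. The mitochondrial share of counts was 2.27% to 3.85% in UIRI d7 libraries and 3.36% to 5.66% in UIRI+Nx d7 libraries. It was 2.40% to 3.41% in WT UIRI d7 and 2.94% to 5.12% in WT UIRI+Nx d7; its part in the fall of Havcr1 was not tested.

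The fall with nephrectomy was not shown to differ between cohorts. In a joint fit the second cohort's log2 difference was lower by 0.20 than the first's (value -0.20, SE 0.50, adjusted p = 0.924). The change from day 3 to day 7 was 0.50 higher in the second cohort (SE 0.47, adjusted p = 0.9998). These edgeR tests called 0 of 16606 genes each, with 1411 and 484 genes at an unadjusted p under 0.05. Absolute levels of the cohorts are not compared because their counts were made with different tools and genome builds.

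**Figure D2:**
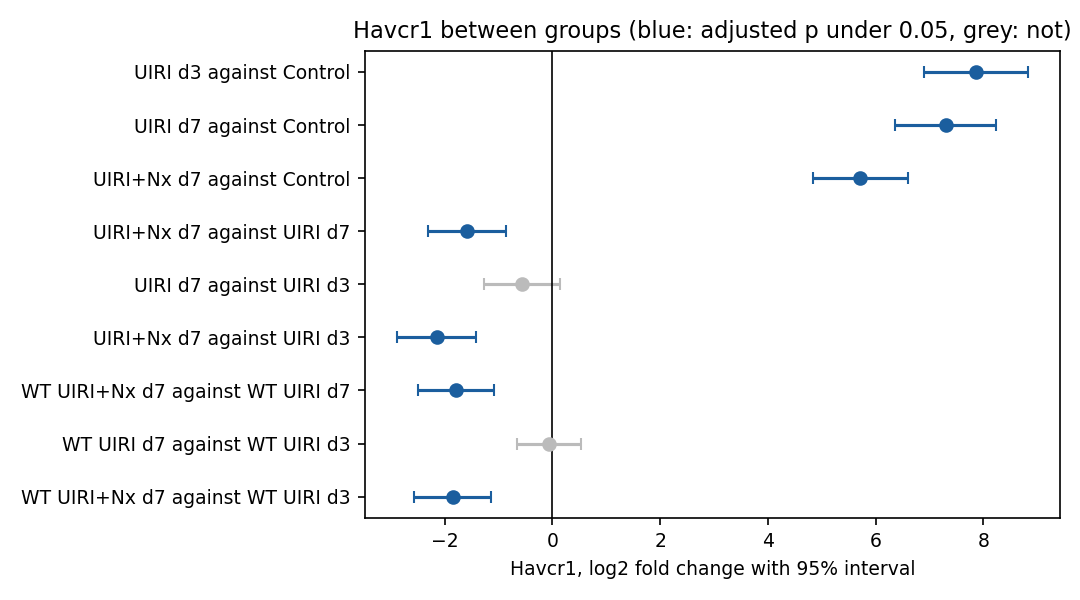
Log2 fold change of Havcr1 with its 95% interval for the 9 comparisons of groups, with the adjusted p under 0.05 in blue. The 3 comparisons with Control lie between 5.71 and 7.86, the 4 comparisons of a nephrectomy group with another injured group between -2.15 and -1.59, and the 2 comparisons of day 7 with day 3 have intervals that include 0.

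The libraries of a cohort fall into blocks, inferred from the library and sample-sheet numbers in the column names. With the block as a covariate the fall with nephrectomy at day 7 was by 1.51 (adjusted p = 0.0137) in the first cohort and by 1.73 (adjusted p = 0.00700) in the second. Within block 1a, with 3 libraries of each group, it was -1.28 (adjusted p = 0.308), within block 2a, with 2 of each, -1.52 (adjusted p = 0.281), and within block 2c, with 4 and 2, -1.92 (adjusted p = 0.0834). The direction was the same within these blocks, but none passed the threshold with so few libraries. UIRI d7 had no library in block 2b. Block 1b, with 1 library of UIRI+Nx d7, was not fitted alone. In the second cohort day and block largely coincide. All 6 WT UIRI d3 libraries lay in block 2a, while WT UIRI d7 had 2 in block 2a and 4 in block 2c. The difference of WT UIRI d7 from WT UIRI d3 was -0.24 with the block as a covariate (edgeR adjusted p = 0.856). Within block 2a it was -0.36 (edgeR adjusted p = 0.843).

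Libraries of the same group differed widely in Havcr1. The coefficient of variation was 31.5% in Control, 35.1% in UIRI d3, 38.2% in UIRI d7 and 49.3% in UIRI+Nx d7. In the second cohort it was 24.2%, 33.4% and 57.2%, again highest after nephrectomy, where the highest library was 5.05 times the lowest. In the first cohort that ratio was not larger after nephrectomy, at 4.71 in UIRI d7 and 4.46 in UIRI+Nx d7. No test of these differences was made. The biological coefficient of variation that edgeR estimated was 0.419 in the first cohort, above that of 76.4% of genes, and 0.345 in the second, above that of 78.3%.

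The other members of the TIM family lie beside Havcr1 on chromosome 11, and 2 of them, Timd2 and Havcr2, could be tested. Havcr2, which encodes the checkpoint receptor TIM-3 of T cells and macrophages, had group means of 0.888 to 3.03 CPM, and Timd4, which encodes a phosphatidylserine receptor of macrophages, had 0 to 0.153 CPM and was too low to test. Timd2 encodes TIM-2, which binds ferritin, and lies 28019 bases before Havcr1. Timd2 averaged 61.5 ± 7.17 CPM in Control, 109 ± 13.1 in UIRI d3, 63.7 ± 18.4 in UIRI d7 and 39.5 ± 11.3 in UIRI+Nx d7 (SD, n = 6 each). Timd2 rose on day 3 (log2 0.83, SE 0.20, adjusted p = 0.00166). With nephrectomy Timd2 fell by 0.69 (SE 0.20, adjusted p = 0.0330) in the first cohort and by 0.98 (SE 0.16, adjusted p = 0.00105) in the second. Havcr2 was not called with nephrectomy in either cohort (log2 0.32, adjusted p = 0.702, and log2 -0.38, adjusted p = 0.645). The size of these changes was not tested against that of Havcr1. Within injured groups neither gene passed a test of correlation with Havcr1. Timd2 had r = 0.21 (permutation p = 0.497, adjusted p = 0.628; rho = 0.30, permutation p = 0.267, adjusted p = 0.476) and 0.12 (permutation p = 0.665, adjusted p = 0.726; rho = 0.07, permutation p = 0.808, adjusted p = 0.878). Havcr2 had r = 0.12 (permutation p = 0.617, adjusted p = 0.717; rho = 0.02, permutation p = 0.937, adjusted p = 0.937) and -0.08 (permutation p = 0.886, adjusted p = 0.904; rho = -0.13, permutation p = 0.713, adjusted p = 0.829). On the other side of Havcr1 the nearest gene tested was Rack1, which encodes a ribosomal scaffold protein, 2020754 bases away; with nephrectomy Rack1 differed by 0.15 (adjusted p = 0.660).

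Other injury genes of the tubule rose with Havcr1 but did not, as a list, fall with it after nephrectomy. Of 33 listed tubular injury genes other than Havcr1, all tested, 30 rose in UIRI d3, 26 in UIRI d7 and 30 in UIRI+Nx d7 against Control, with median log2 fold changes of 2.41, 2.34 and 2.62. Of all genes, 17.8%, 21.5% and 17.3% rose, with medians of 0.00, 0.04 and 0.02. Against UIRI d7, nephrectomy lowered 1 of the 33, the hyaluronan receptor Cd44, and raised none (median 0.13), where 3.46% of all genes fell, 3.17% rose and the median was -0.01. In the second cohort 2 of 33 fell, Cd44 and the integrin subunit Itgb6, and 5 rose, Lcn2, Krt7, Cdkn1a, Gdf15 and Plin2 (median 0.17), where 2.66% of all genes fell and 2.58% rose.

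Lcn2 and Havcr1 are both used as urinary markers of kidney injury, and their values with nephrectomy had opposite signs. Lcn2, which encodes the siderophore-binding protein NGAL, had a log2 difference of 1.04 (SE 0.49, adjusted p = 0.218) in the first cohort and rose by 1.08 (SE 0.22, adjusted p = 0.00565) in the second. Krt20, a keratin of damaged tubule cells, differed by -0.03 (adjusted p = 0.974) and -0.31 (adjusted p = 0.518). Cd44 fell by 1.17 (SE 0.22, adjusted p = 0.00163) and 1.13 (SE 0.24, adjusted p = 0.00960).

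Some genes named in failed repair of the proximal tubule fell with nephrectomy, as Havcr1 did. Of 16 listed, 15 were tested, and 4 fell with nephrectomy in the first cohort (Vcam1, Dcdc2a, Sema5a and Relb, median of the list -0.72) and 5 in the second (the same 4 and Cxcl1, median -0.48), with none higher. Vcam1, an adhesion molecule for leukocytes, fell by 1.68 (SE 0.22, adjusted p = 2.92e-05) and 1.23 (SE 0.27, adjusted p = 0.0115). Over all genes 3.46% and 2.66% fell. Against Control 12, 14 and 12 of the 15 had risen in UIRI d3, UIRI d7 and UIRI+Nx d7, where 17.8%, 21.5% and 17.3% of all genes rose.

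Of the genes listed for the work that KIM-1 does, 3 were called with nephrectomy, Msr1, Axl and Il6st, beside 6.62% and 5.24% of all genes in the 2 cohorts. Of 26 listed genes of apoptotic cell uptake 24 were tested. In the first cohort the scavenger receptor Msr1 rose by 0.98 (adjusted p = 0.00924) and the receptor kinase Axl fell by 0.88 (adjusted p = 0.0169), and in the second Msr1 rose by 0.82 (adjusted p = 0.0408). Of 19 listed genes for shedding of KIM-1 and its signalling, 18 were tested, and Il6st, the shared receptor subunit of the interleukin-6 family, fell in the first cohort by 0.46 (adjusted p = 0.0375), with 0 called in the second.

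Markers of T cells moved with nephrectomy too. Of 14 listed, 8 of the 11 tested fell in the first cohort (median -2.66) and 6 of 12 in the second (median -1.995), where 3.46% and 2.66% of all genes fell. Their summed level ran from 70.6 to 176 CPM in UIRI d7 and from 33.2 to 77.8 CPM in UIRI+Nx d7, and from 68.1 to 113 and 44.0 to 58.7 CPM in the second cohort, and no member was at 0 over a whole group. The slope on Havcr1 within injured groups, described further on, passed in 0 of 11 and 1 of 12 of these markers, beside 33.3% and 17.9% of all genes. The part of T cells in the fall of Havcr1 was not tested. The summed level of 20 proximal tubule markers was 7444 to 11030 CPM in UIRI d7 and 9444 to 15940 CPM in UIRI+Nx d7, and 8455 to 13780 and 9885 to 13040 CPM in the second cohort. In bulk tissue, fewer cells of a type and less RNA per cell cannot be told apart.

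Over the 7 group means, centred within each cohort, the genes with the pattern most like that of Havcr1 were Wdr89 (r = 0.997), Cldn1 (0.996), Emp3 (0.996), Akr1b8 (0.995), Impdh1 (0.993) and Cd44 (0.9925), chosen for this likeness among 11376 genes. Control, held by the first cohort only, had 4.32 CPM of Havcr1 beside 198 to 1002 in the injured groups, so it weighs heavily in these r. Likeness among the injured groups alone was not tested. Likeness of pattern is no likeness of size. The mean of the tight junction protein Cldn1 was 19.3 CPM in Control, 148 in UIRI d3, 131 in UIRI d7 and 69.6 in UIRI+Nx d7, and that of Cd44 was 3.75, 93.9, 107 and 47.7. Wdr89, by contrast, only spanned 326 to 464 CPM, and 407 to 464 CPM among the injured groups.

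Many genes varied with Havcr1 between libraries of the same group. The slope of each gene on Havcr1 was fitted over the 18 injured libraries of the first cohort and the 16 of the second, with the group means taken out. The slope passed in 5096 of 15326 genes (33.3%) in the first cohort, 18.2% with a positive and 15.1% with a negative slope. In the second it passed in 2779 of 15542 genes (17.9%), 12.1% positive and 5.79% negative. Of the genes with a positive slope, 1456 were shared, which is 52.7% of the first cohort's list and 77.7% of the second's. Negative slopes were shared by 572 genes, 24.8% and 64.1%, and 2 genes had opposite calls. The cohorts share no library.

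The first cohort's count rested on a few libraries with low Havcr1. Without UIRI d7 replicate 4 it was 1744 genes, and without that library and UIRI+Nx d7 replicate 6, the 2 farthest from the median, 0 genes passed in edgeR, with 2862 at an unadjusted p under 0.05. In the second cohort 1910 genes passed without WT UIRI+Nx d7 replicates 2 and 1, 1763 without WT UIRI d7 replicate 3 and 1570 without WT UIRI d3 replicate 6. With the library block as a covariate the counts were 6060 and 4414.

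The genes most like Havcr1 within groups, chosen for their correlation in both cohorts among 10517 genes and so given with no test, were Hspb11, Rbbp4, Txndc5, Crem, Lactb2, Yap1, Far1 and Lyplal1. Txndc5, a protein disulfide isomerase of the endoplasmic reticulum, had r = 0.90 and 0.92 in the 2 cohorts (rho 0.71 and 0.91), and r = 0.77 and 0.89 without the farthest libraries. Yap1, the coactivator of the Hippo pathway, had r = 0.90 and 0.89 (rho 0.71 and 0.87), and 0.76 and 0.90 without those libraries. Crem, a transcription factor of the cAMP response, had r = 0.90 and 0.90 (rho 0.79 and 0.94). Over all genes the median r was -0.02 and -0.06, and 23.5% and 18.7% of genes had r above 0.5. The lowest were Sharpin, Sparc, Eng and Brd9. Sparc, a matrix glycoprotein, had r = -0.94 and -0.86, and Eng, an endothelial receptor for TGF-beta ligands, -0.87 and -0.86. Control libraries did not enter these r. Control replicate 5, lowest of its group in Havcr1 (1.69 CPM), was also lowest there in all the genes most like Havcr1, with Txndc5 at 10.1 CPM and Yap1 at 41.0 CPM. It was highest of Control in Sharpin, Sparc (900 CPM) and Eng, though not in Brd9. Whether this likeness is particular to Havcr1 or to injured kidneys was not tested.

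**Figure D3:**
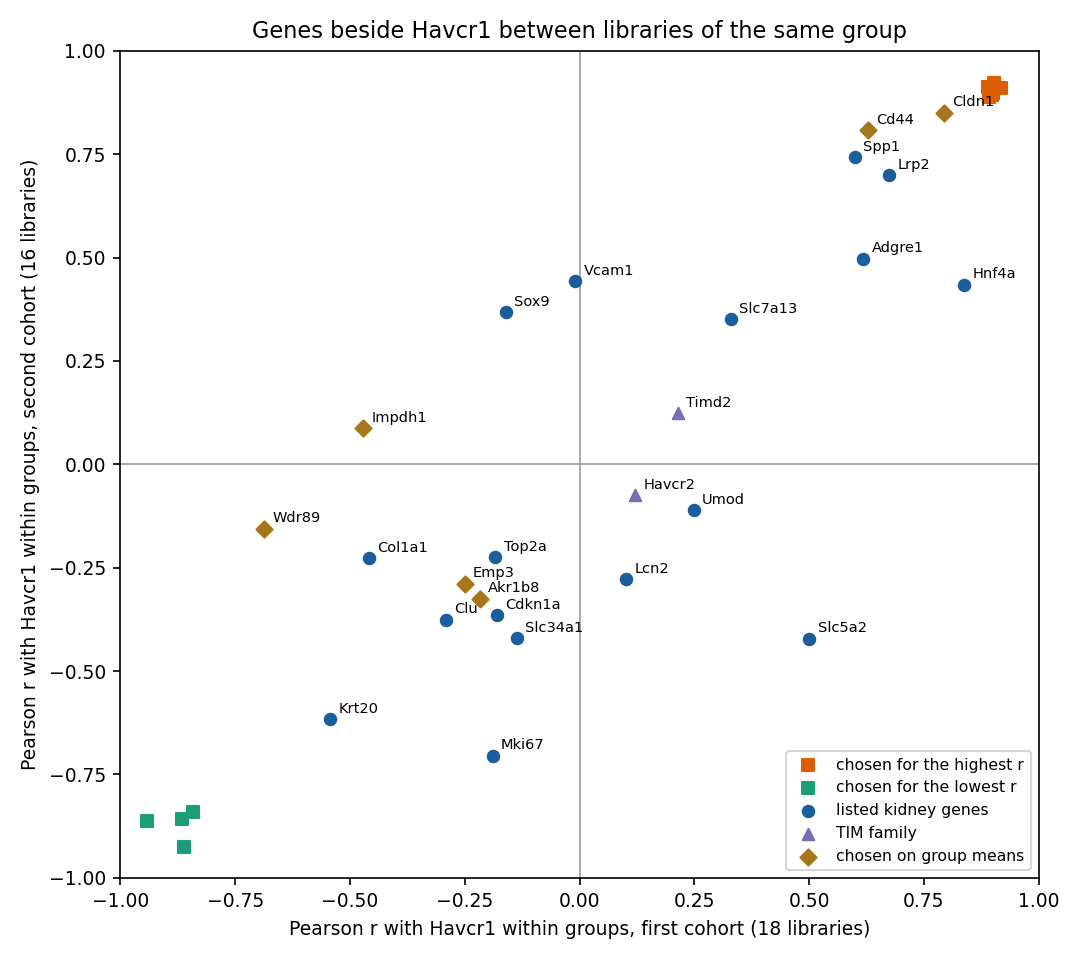
Pearson r of each named gene with Havcr1 between libraries of the same group, first cohort on the horizontal axis (18 libraries) and second on the vertical (16 libraries). Cldn1, Cd44, Spp1 and Lrp2 lie at the upper right with r from 0.60 to 0.85, and Lcn2 lies near the centre; the squares were chosen for their r.

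Among 25 genes listed for the kidney, for the TIM family or for their group means, 50 correlations were tested with shuffles of Havcr1 within groups, adjusted over all 50. Only Cldn1, Spp1 and Lrp2 passed by Pearson's r in both cohorts. Such values were common: 23.5% and 18.7% of all genes had r above 0.5, and the 95th percentile of r was 0.81 and 0.78. Spp1 and Lrp2 lay below that percentile in both cohorts, and Cldn1 did in the first. Cldn1 had r = 0.79 (permutation p = 0.00075, adjusted p = 0.0125; rho = 0.65, permutation p = 0.00413, adjusted p = 0.0413) in the first cohort. In the second Cldn1 had r = 0.85 (permutation p = 0.00019, adjusted p = 0.00900; rho = 0.86, permutation p = 0.00036, adjusted p = 0.0180). Without the farthest libraries r was 0.51 and 0.82, and within blocks 0.81 and 0.91. Cldn1 was chosen for its likeness to Havcr1 over group means, and it also went with Havcr1 within groups, by both coefficients.

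Spp1 encodes osteopontin, a secreted phosphoprotein of injured tubules. Spp1 had r = 0.60 (permutation p = 0.00583, adjusted p = 0.0411; rho = 0.46, permutation p = 0.0493, adjusted p = 0.202) and 0.74 (permutation p = 0.00439, adjusted p = 0.0389; rho = 0.76, permutation p = 0.00256, adjusted p = 0.0320). Without the farthest libraries r was 0.46 and 0.71, and within blocks 0.62 and 0.88. Lrp2 encodes megalin, the endocytic receptor of the healthy proximal tubule, and was itself lower after injury (log2 -1.85 in UIRI d7 against Control, SE 0.36, adjusted p = 0.000140). Lrp2 had r = 0.67 (permutation p = 0.00658, adjusted p = 0.0411; rho = 0.61, permutation p = 0.0245, adjusted p = 0.153) and 0.70 (permutation p = 0.00989, adjusted p = 0.0495; rho = 0.68, permutation p = 0.00888, adjusted p = 0.0740). Without the farthest libraries r was 0.52 and 0.60, and within blocks 0.81 and 0.74. So a gene that fell with injury was higher in those injured kidneys of a group that held more Havcr1, though by rank it did not pass. Control libraries, which did not enter these correlations, had 819 CPM of Lrp2 in replicate 5, with the lowest Havcr1 (1.69 CPM). Replicates 1 and 6, with the highest Havcr1 (5.35 and 5.33 CPM), had 1821 and 2188 CPM of Lrp2. The relation in Control was not tested. Other listed proximal tubule genes did not all share the sign of Lrp2. In the first and second cohort Slc34a1 had r = -0.14 and -0.42, Slc5a2 0.50 and -0.42, and Slc7a13 0.33 and 0.35. None of these passed.

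Cd44 passed in the second cohort (r = 0.81, permutation p = 0.00155, adjusted p = 0.0194; rho = 0.77, permutation p = 0.0024, adjusted p = 0.0320; r = 0.67 without the farthest libraries and 0.93 within blocks) and not in the first (r = 0.63, permutation p = 0.0133, adjusted p = 0.0606; rho = 0.45, permutation p = 0.0551, adjusted p = 0.202; 0.20 without the farthest libraries). Hnf4a, the transcription factor of proximal tubule identity, passed in the first (r = 0.84, permutation p = 0.00036, adjusted p = 0.00900; rho = 0.71, permutation p = 0.00233, adjusted p = 0.0320; 0.64 without the farthest libraries and 0.86 within blocks) and not in the second (r = 0.43, permutation p = 0.103, adjusted p = 0.262; rho = 0.39, permutation p = 0.158, adjusted p = 0.344). Mki67, a marker of dividing cells, passed by r in the second (r = -0.70, permutation p = 0.00963, adjusted p = 0.0495; rho = -0.55, permutation p = 0.0482, adjusted p = 0.202) and not in the first (r = -0.19, permutation p = 0.453, adjusted p = 0.628; rho = -0.12, permutation p = 0.644, adjusted p = 0.767). Wdr89 passed by r in the first only (r = -0.69, permutation p = 0.00467, adjusted p = 0.0389; rho = -0.50, permutation p = 0.0344, adjusted p = 0.191; r = -0.36 without the farthest libraries). Whether these differ between cohorts was not tested.

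The well-known injury genes Lcn2, Vcam1 and Krt20 did not pass these correlation tests at this number of libraries. Lcn2 had r = 0.10 (permutation p = 0.683, adjusted p = 0.726; rho = -0.04, permutation p = 0.895, adjusted p = 0.932) and -0.28 (permutation p = 0.373, adjusted p = 0.561; rho = -0.27, permutation p = 0.379, adjusted p = 0.589). Vcam1 had r = -0.01 (permutation p = 0.973, adjusted p = 0.973; rho = 0.04, permutation p = 0.892, adjusted p = 0.932) and 0.44 (permutation p = 0.370, adjusted p = 0.561; rho = 0.26, permutation p = 0.403, adjusted p = 0.592). Krt20 had r = -0.54 (permutation p = 0.0440, adjusted p = 0.157; rho = -0.44, permutation p = 0.117, adjusted p = 0.293) and -0.62 (permutation p = 0.0431, adjusted p = 0.157; rho = -0.60, permutation p = 0.0428, adjusted p = 0.202), which did not pass. By the edgeR slope, however, Krt20 did pass, at -0.47 (SE 0.18, adjusted p = 0.0464) and -0.43 (SE 0.14, adjusted p = 0.0364) log2 units per log2 unit of Havcr1, so the call for this gene rests on the test used. Without the farthest libraries the r of Krt20 was -0.34 and -0.62.

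**Figure D4:**
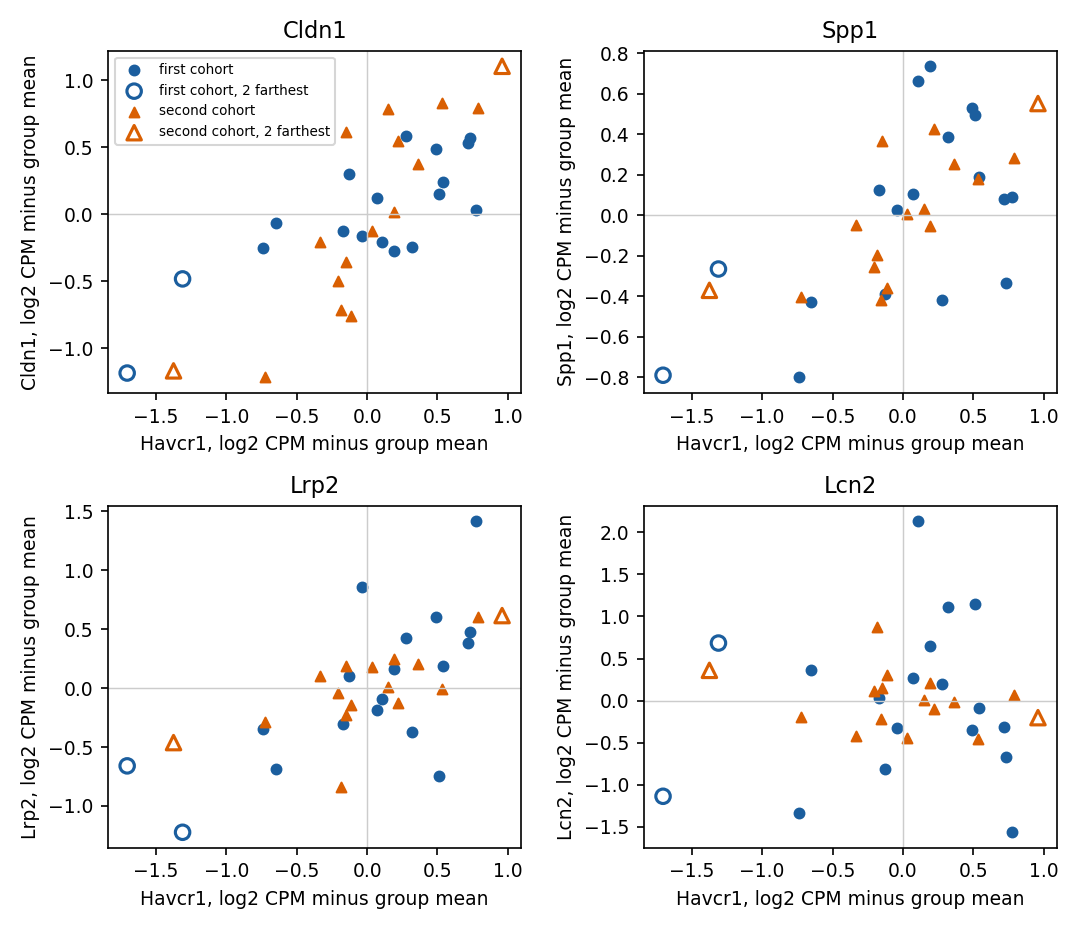
Log2 CPM of 4 genes against that of Havcr1, each with its group mean taken out, 1 point per injured library, with the 2 libraries farthest in Havcr1 of each cohort as open symbols. Cldn1, Spp1 and Lrp2 rise with Havcr1 (r = 0.60 to 0.85), and the correlation of Lcn2 did not pass (r = 0.10 and -0.28).

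Some listed genes of injury and repair had a slope in both cohorts, and the share of all genes with one was 18.2% positive and 15.1% negative in the first cohort and 12.1% and 5.79% in the second cohort. In the tubular injury list 6 of 33 had a positive and 8 a negative slope in the first cohort, and 7 and 3 in the second, which for positive slopes in the first cohort is the share of all genes. Spp1, Cd44, Anxa1, Itgb6 and Igfbp7 were positive in both, and Krt20, Krt18 and Plin2, which encode keratins and a lipid droplet protein, were negative in both. Of the 15 failed-repair genes 6 were positive and 4 negative in the first cohort, and 6 and 1 in the second. The secreted factors Ccl2, Cxcl1, Csf1 and Pdgfb were positive in both, as were Nfkb1 and Itgb8, and the cadherin Cdh6 was negative in both. Ccl2 encodes a monocyte chemokine, and its slope was 1.05 (SE 0.25, adjusted p = 0.00366) and 1.62 (SE 0.27, adjusted p = 0.000455) log2 units per log2 unit of Havcr1.

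In the list of shedding and signalling, Nr4a1, which encodes an orphan nuclear receptor, Gna12, a G protein subunit reported to bind KIM-1, Socs3 and Osmr had positive slopes in both cohorts, and 6 and 7 of 18 were positive in all, with 1 and 0 negative. The shares of all genes were 18.2% and 12.1% positive, and 15.1% and 5.79% negative. Socs3, a feedback inhibitor of STAT3 signalling, had slopes of 1.07 (SE 0.27, adjusted p = 0.00535) and 1.05 (SE 0.19, adjusted p = 0.000942). In the uptake list Gas6 and Pros1, bridging proteins between phosphatidylserine and the receptors of the Axl family, and Anxa1 were positive in both, and the receptor kinase Mertk was negative in both, with 5 and 4 positive and 4 and 1 negative of 24, near the shares of all genes. The median slope of these 2 lists was 0.26 and 0.24 for shedding and signalling and 0.07 and 0.07 for uptake, beside -0.01 and -0.02 over all genes. Without the 2 farthest libraries no gene of any list passed in the first cohort.

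Some genes of cell division and of the proximal tubule had slopes on Havcr1. Over all genes 18.2% and 12.1% were positive and 15.1% and 5.79% negative in the 2 cohorts. Of 22 listed cell division genes 7 had a positive slope and none a negative one in the first cohort, against 4 and 2 in the second. Cdk1, the kinase that drives entry into mitosis, had slopes of 1.22 (SE 0.17, adjusted p = 0.000201) and 0.85 (SE 0.12, adjusted p = 7.94e-05), and Aurkb, Mcm2 and Rrm2 were positive in both. Mki67 was among the negative ones of the second cohort, with a slope of -0.34 (SE 0.10, adjusted p = 0.0208). Of 20 proximal tubule genes 5 and 2 were positive and 2 and 2 negative. Lrp2 was positive in both cohorts, and Slc13a3, a dicarboxylate transporter, was negative in both.

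By rank, a property of the libraries moved with Havcr1 within the injured groups, but by Pearson's r it did not pass after adjustment. The GC tilt of a library is the slope of its gene levels, each centred over libraries, on the GC content of the last 500 bases of the transcript, per 10 points of GC. It was chosen after seeing the data, and its p-values do not account for that choice. Havcr1 has 38.7% GC there, and the median was 45.0% in each cohort for genes with a positive slope on Havcr1, 50.3% and 50.8% for genes with a negative slope and 47.0% for all genes. These slopes and the tilt were taken from the same libraries, so neither is separate support for the other. The tilt ran against Havcr1 with r = -0.60 (permutation p = 0.0234, adjusted p = 0.0523 over 3 tests; rho = -0.62, permutation p = 0.0122, adjusted p = 0.0295) in the first cohort. In the second it was r = -0.59 (permutation p = 0.0348, adjusted p = 0.0523; rho = -0.63, permutation p = 0.0197, adjusted p = 0.0295). Within blocks r was -0.83 and -0.81, and without the 2 libraries of farthest tilt -0.57 and -0.70. The third test, in the 6 Control libraries, gave r = -0.71 (permutation p = 0.0911, adjusted p = 0.0911; rho = -0.60, permutation p = 0.242, adjusted p = 0.242), which turned to 0.19 without the 2 farthest.

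With the tilt as a covariate 3644 genes had a slope on Havcr1 that passed in the first cohort, and 898 did in the second. Of these, 1758 positive and 1136 negative calls of the first cohort were also made without it, and 607 and 128 of the second. The fall of Havcr1 with nephrectomy was then by 1.81 (adjusted p = 0.000542) and 1.90 (adjusted p = 0.000169). The part of the tilt in these results was not tested further.

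**Figure D5:**
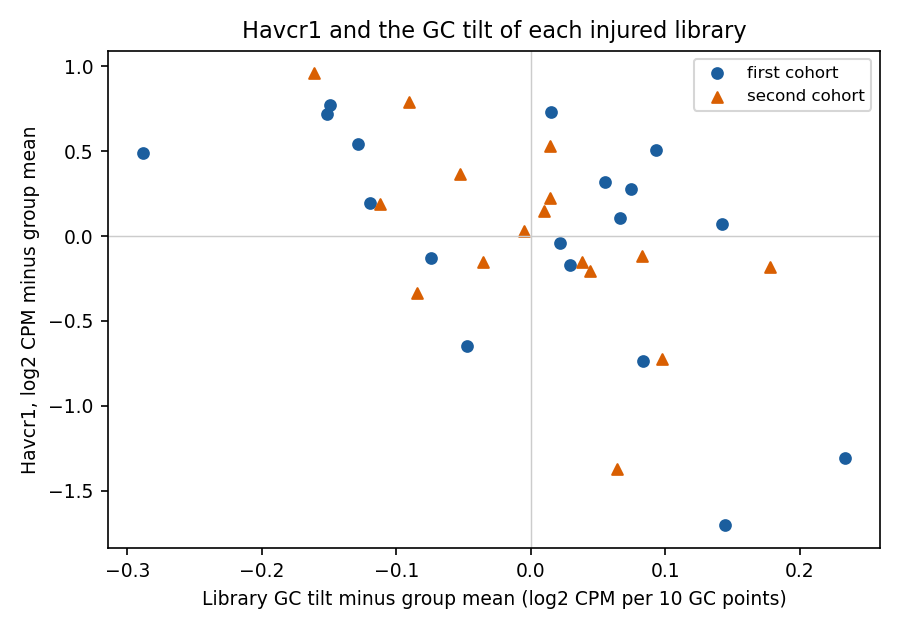
Havcr1 (log2 CPM minus group mean) against the GC tilt of the library (minus group mean, log2 CPM per 10 points of GC), 1 point per injured library of each cohort. Havcr1 tends to be lower where the tilt is higher, with r of -0.60 and -0.59 in the first and second cohort. These r did not pass after adjustment, and rho of -0.62 and -0.63 did.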

How the data were processed

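RNA from a frozen kidney pole section was made into 3′ end libraries (QuantSeq FWD, 500 ng input), per the labels' protocols. The authors deposited raw counts, whole numbers and not normalized, in 1 table (48795 genes, 41 columns). The first cohort was processed, per the submitters' processing notes, with Trimmomatic, STAR and HTSeq 0.6.1 on GRCm38 and the second with STAR 2.7.11b on GRCm39; their annotation release and strand setting: not given in the sources used here. Positions are from GENCODE M21. Symbols were matched for 48349 identifiers.

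The gene, the lists and the alternatives were chosen with earlier results of these data known, and the GC tilt after seeing the data. Each cohort was fitted with edgeR 4.0.16 (R 4.3.3): TMM scaling, filterByExpr, quasi-likelihood F test, Benjamini-Hochberg adjustment, threshold 0.05, leaving 15701 and 15543 genes. Standard errors were taken as |log2 fold change| divided by the root of the F statistic. Slopes used log2 CPM of Havcr1 with a prior count of 2. Correlations used 100000 shuffles within groups, two-sided. The tests were tested on simulated data. Alternatives were DESeq2 1.42.0, RLE size factors, no filter, blocks, 2 groups only, and leaving out libraries. Library blocks were inferred from the library and sample-sheet numbers and are named by no label. Replicate numbers did not pair samples: over 50 pairs of equal numbers the correlations ran from -0.424 to 0.447, and in 0 comparisons did all exceed 0.1. No replicate pair agreed within sampling noise. Genes were named by rule: the TIM family, 17 listed kidney genes, the 8 highest and 4 lowest correlations within groups at 5 CPM or more, the 6 nearest patterns over group means, and up to 3 members of each list; further list members named were chosen after their values were seen. A column of undetermined reads has no group and entered no comparison.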

Additional observations from a re-analysis of the deposited data

Results flagged for a closer look

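Of the 63 sets tested (9 genes in 7 groups), 8 held a library far from the rest of its group by Dixon's test at 95%, where chance flags about 1 in 20. For Havcr1 these were Control replicate 5 at 1.69 CPM, below the other 5 Control libraries, and WT UIRI d7 replicate 3 at 1141 CPM, above the other 5 of its group. UIRI d7 replicate 4, at 190 CPM, did not pass (ratio 0.606 against a critical value of 0.625). Timd2 was low in Control replicate 2 (47.5 CPM) and high in UIRI d3 replicate 6 (133.7 CPM). Wdr89 was high in UIRI d7 replicate 4 (738 CPM), the library with the lowest Havcr1 of its group. Akr1b8 was high in Control replicate 3 (8.19 CPM). Cd44 was high in Control replicate 6 (5.73 CPM) and low in UIRI+Nx d7 replicate 6 (39.3 CPM), which also had the lowest Havcr1 of its group.

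The column of undetermined reads, which belongs to no group, held 6959 counts of Havcr1 among 12446693, or 559 CPM (Wilson 95% interval 546 to 572, counting error only), above every Control library.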

How the results depend on the processing

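Beside leaving out 1 library, 69 alternative fits of the 9 group comparisons kept direction and call, 6 lost the call and 1 changed sign, under RLE size factors, no filter, DESeq2, the replicate block, the block covariate, 2 groups only, single blocks and the GC tilt. Calls were lost only within single library blocks, with fewer libraries. UIRI+Nx d7 against UIRI d7 was -1.28 within block 1a. UIRI+Nx d7 against UIRI d3 was -1.41 within block 1a and -3.10 within block 2b (adjusted p = 0.223 and 0.0603). WT UIRI+Nx d7 against WT UIRI d7 was -1.52 within block 2a and -1.92 within block 2c, and against WT UIRI d3 -1.87 within block 2a (adjusted p = 0.0614). WT UIRI d7 against WT UIRI d3 changed sign to 0.17 with the GC tilt (adjusted p = 0.696), with no call either way; the cause was not tested. Slope counts moved by over 1.5 times in the first cohort to 0 without the 2 farthest libraries. In the second cohort they moved to 4414 with the block covariate, 898 with the GC tilt and 1128 with the replicate block. The replicate block changed no other call; the numbers are not known to pair mice. By Spearman's rho the signs of Lcn2 (-0.0361) and Vcam1 (0.0361) changed in the first cohort.

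Leaving out each library in turn gave log2 fold changes of 7.68 to 7.98 for UIRI d3, 7.12 to 7.49 for UIRI d7 and 5.53 to 5.89 for UIRI+Nx d7 against Control. UIRI+Nx d7 ranged from -1.78 to -1.40 against UIRI d7 and from -2.31 to -1.97 against UIRI d3, and UIRI d7 against UIRI d3 from -0.69 to -0.37. In the second cohort the nephrectomy group ranged from -2.15 to -1.50 against WT UIRI d7 and from -2.21 to -1.56 against WT UIRI d3, and WT UIRI d7 against WT UIRI d3 from -0.27 to 0.012, its sign changing without WT UIRI d3 replicate 5 or WT UIRI d7 replicate 1. No call of these 9 changed. The differences between cohorts ranged from -0.54 to 0.10 (positive without WT UIRI+Nx d7 replicate 2 or WT UIRI d7 replicate 3) and from 0.28 to 0.63. Slope counts ranged from 1744 to 5436 and from 1570 to 2865. Depth limits Control, with as few as 35 counts.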
